A study of Homo sapiens with 3 samples.

Results

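snoRNA host genes are genes, coding or noncoding, whose introns carry small nucleolar RNAs (snoRNAs). The genes described here are all annotated as long noncoding. They were those whose Ensembl identifier corresponds to a symbol of the form SNHG followed by a number, together with GAS5, ZFAS1 and EPB41L4A-AS1. This rule found 31 genes among the 58333 genes of the table. The rule uses names and no measured values. Their levels were compared in Cal62 cells, a human line derived from a thyroid tumor, that had been grown in DMEM with 10% FBS and transfected with Lipofectamine RNAiMAX. The cells received a nontargeting siRNA (siControl) or an siRNA against ADAR1, the enzyme that converts adenosine to inosine in double-stranded RNA. Both ADAR1 siRNAs (siADAR1 #1 and siADAR1 #2) were designed against the same gene. Poly(A)+ RNA of 2 biological replicates of each transfection was sequenced, which gave 6 libraries, and how long after transfection the RNA was taken is not given in the sources used here. All libraries came from 1 transiently transfected cell line, and both knockdowns were compared with the same siControl libraries.

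The spliced exons and the introns of a snoRNA host gene have separate fates. The introns are trimmed to snoRNAs, of which the C/D box class guides ribose methylation and the H/ACA box class guides pseudouridylation, mostly of ribosomal RNA, while their relatives in Cajal bodies (scaRNAs) act on spliceosomal RNAs. The spliced transcript of a noncoding host is exported, and its short reading frames end far upstream of later exon junctions. Many such transcripts are therefore degraded during translation by nonsense-mediated decay (NMD). Several host genes start transcription within a pyrimidine tract, as the ribosomal protein genes do, which places their transcripts among those whose translation responds to growth signals. Since the libraries hold polyadenylated RNA, the values below describe the host genes rather than the mature snoRNAs. For hosts such as SNHG1, SNHG15 and EPB41L4A-AS1, the annotated exons of all isoforms together cover the whole gene. The values per gene therefore do not separate spliced transcripts from those that keep introns.

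RefSeq placed 150 snoRNAs or scaRNAs within 30 of the 31 genes, and none in SNHG27. Of these, 121 were of the C/D box class and 22 of the H/ACA box class, 4 were scaRNAs and 3 were of another kind. SNHG14, the long transcript of the Prader-Willi locus, held 83 of them. GAS5 carried 11, of which 10 were C/D box snoRNAs. In 11 genes all snoRNAs were of the C/D box class, and in 9 genes all were of the H/ACA box class. The sequences below are those of snoRNAs in the introns or exons of 4 of the hosts called in the comparisons below, read from the GENCODE release 44 transcripts on GRCh38. SNORA13 lies within EPB41L4A-AS1 at chr5:112161485-112161617 (+ strand), and SNORA9 within SNHG15 at chr7:44985378-44985510 (- strand). SNORD1B, from SNHG16, lies at chr17:76561109-76561192 (+ strand). SNHG29 holds SNORD49A at chr17:16440036-16440106 and SNORD49B at chr17:16439505-16439576 (+ strand). Capitals mark the ACA near the 3′ end of the H/ACA box snoRNAs and, in the C/D box snoRNAs, the C box letters TGATGA and the D box letters CTGA.
SNORA13: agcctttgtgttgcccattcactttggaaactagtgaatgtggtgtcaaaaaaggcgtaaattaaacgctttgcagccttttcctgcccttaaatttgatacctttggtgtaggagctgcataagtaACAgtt
SNORA9: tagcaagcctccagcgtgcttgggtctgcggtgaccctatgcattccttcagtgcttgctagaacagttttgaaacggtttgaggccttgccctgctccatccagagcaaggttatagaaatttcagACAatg
SNORD1B: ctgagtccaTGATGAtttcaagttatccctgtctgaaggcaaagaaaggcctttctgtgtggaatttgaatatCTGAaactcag
SNORD49A: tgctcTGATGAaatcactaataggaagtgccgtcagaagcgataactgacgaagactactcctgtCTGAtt
SNORD49B: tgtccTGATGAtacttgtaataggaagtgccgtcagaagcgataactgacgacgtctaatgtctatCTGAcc

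For the start of the host transcripts, windows of 30 bases were read from RefSeq (GRCh38.p14), with 10 bases before the annotated start and 20 from it onward. Windows were found for 27 of the 31 genes. The first 4 of the windows below begin transcription with C followed by at least 4 pyrimidines, and the last 3 are hosts on which the comparisons turn. Capitals mark the longest unbroken run of C and T, searched on the transcribed strand only. The 11th base of each line is the start annotated in RefSeq. For GAS5 the window lies wholly upstream of the GENCODE gene whose reads were counted, which starts at chr1:173868882 (- strand). ZFAS1 was read at chr20:49278632-49278661 (+), SNHG32 at chr6:31834906-31834935 (+), SNHG5 at chr6:85678714-85678743 (-), SNHG4 at chr5:139274091-139274120 (+), EPB41L4A-AS1 at chr5:112160516-112160545 (+), SNHG16 at chr17:76557754-76557783 (+) and GAS5 at chr1:173869026-173869055 (-).
ZFAS1: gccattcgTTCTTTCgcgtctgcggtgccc
SNHG32: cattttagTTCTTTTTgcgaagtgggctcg
SNHG5: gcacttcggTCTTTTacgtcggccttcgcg
SNHG4: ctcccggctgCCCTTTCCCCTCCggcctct
EPB41L4A-AS1: tcatgaaTTCTgtcgggtcccaaaatacgt
SNHG16: gggcggtctcgcgTTCTTTTCgaggtcggc
GAS5: tcatgaattcagatgtgtttaTTTTggagc

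A start at C followed by at least 4 pyrimidines was found in 7 of 27 host windows (25.9%), in 46 of 77 windows of ribosomal protein genes (59.7%) and in 1429 of 35116 windows of all genes (4.07%). A run of at least 6 pyrimidines anywhere in the window was found in 18 of 27 host windows (66.7%), against 81.8% of the ribosomal protein windows and 30.4% of all windows. The minimum lengths were chosen after the windows had been seen, and the windows rest on 1 annotated start per gene. The windows of GAS5, SNHG3 and SNHG14 lie wholly outside these genes as annotated in GENCODE release 44. The shares are descriptions of letters, not of mapped start sites.

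Between 30114840 and 50029763 reads were counted on genes per library. ADAR, the targeted gene, had a mean of 11304 normalized counts in siControl, 1787 with siADAR1 #1 and 2296 with siADAR1 #2 (log2FC -2.71 and -2.35, SE 0.30, adjusted p = 0.00294 and 0.00124, limma). Of 10 thyroid markers, PAX8 was abundant at 14897 normalized counts in siControl and 4013 with siADAR1 #2, whereas NKX2-1 had 0 reads in all 6 libraries, and TG, SLC5A5, SLC26A4 and DIO1 had means under 50 normalized counts in each group. Of the 6 markers that could be tested, 0 were called with siADAR1 #1 and 2 were lower with siADAR1 #2: PAX8 (log2FC -1.99, adjusted p = 0.00344) and FOXE1 (log2FC -1.21, adjusted p = 0.0233). The part of these markers in the results below was not tested.

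A normalized count is the number of reads on a gene divided by the library's size factor, recovered from the deposited log2 values, and 3 reads correspond to 2.81 to 4.39 normalized counts depending on the library. The 31 host genes together took 0.126% and 0.132% of all reads in siControl, 0.133% and 0.136% with siADAR1 #1 and 0.149% and 0.150% with siADAR1 #2, so by this share all 4 knockdown libraries were above control. After division by the size factors, their summed counts were 67442 and 62440 in siControl, 62078 and 65421 with siADAR1 #1, and 67360 and 65997 with siADAR1 #2. By these sums the ranges of the transfections overlapped, and the order of the libraries thus depended on the scaling. SNHG29 alone held 23.8% and 23.5% of the host reads in siControl, 20.2% and 22.7% with siADAR1 #1 and 30.3% and 29.4% with siADAR1 #2. The 5 highest hosts made up between 56.0% and 63.8% of the summed normalized counts.

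Levels between genes were compared per kilobase of annotated exon. In siControl SNHG29 was highest at 1793 and 1643 normalized counts per kilobase, and its range overlapped that of SNHG32, at 1689 and 1577. SNHG1, the host of a row of C/D box snoRNAs, followed at 1594 and 1332, which overlapped SNHG32, and SNHG6 was lower than these at 1079 and 1083. GAS5, named for its rise in growth-arrested cells, had 801 and 702 normalized counts per kilobase. The ranges of SNHG16 (638 and 660) and SNHG5 (668 and 531) overlapped, as did those of ZFAS1 (482 and 425) and SNHG19 (436 and 427). EPB41L4A-AS1 was 19th of the 28 hosts that passed the filter on low values described below, at 138 and 104 normalized counts per kilobase. At the low end, SNHG26 had 6.26 and 10.9 and SNHG22 10.2 and 5.36 normalized counts per kilobase. The exon length is the union over all annotated isoforms, which for SNHG14 spans 122609 bases in 142 transcripts, so its level of 67.3 and 60.9 per kilobase is understated relative to the others. Among the other hosts the length also varied, with 12604 bases for SNHG5, 8315 for ZFAS1, 614 for SNHG19 and 340 for SNHG25. The order per kilobase thus depends on the annotation as well as on the reads.

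**Figure D1:**
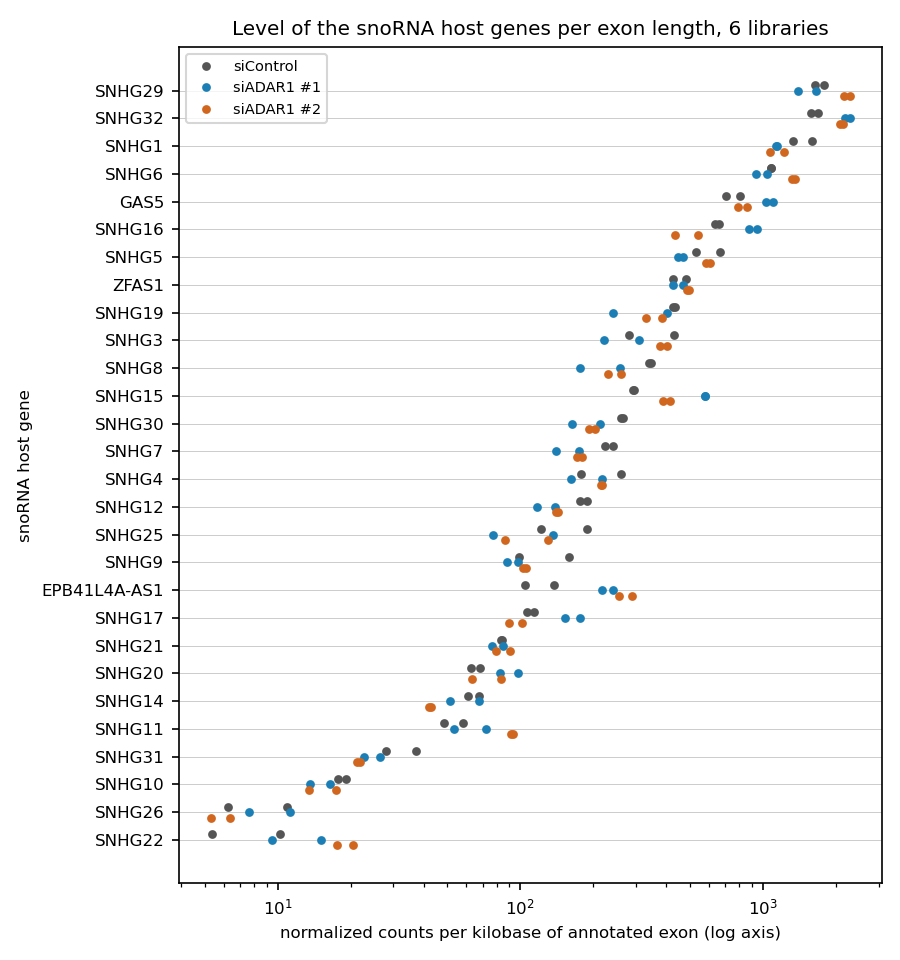
Normalized counts per kilobase of annotated exon (x axis, log scale) of the 28 hosts that passed the filter, ordered by their siControl mean, with 1 point per library colored by transfection. The hosts span from SNHG29 at 1718 in siControl to SNHG22 at 7.80, and EPB41L4A-AS1 and SNHG15 have all 4 siADAR1 points to the right of both siControl points.

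A gene was tested when its mean log2 value over the 6 libraries reached that of 10 normalized counts, which 19590 genes and 28 of the 31 hosts did. SNHG27 had 0 reads in every library, which allows up to 3 reads. SNHG18 had 2 and 0 reads in siControl, 2 and 0 with siADAR1 #1 and 4 and 0 with siADAR1 #2. SNHG28 had 17 and 8 reads in siControl, 7 and 0 with siADAR1 #1 and 0 and 6 with siADAR1 #2, which at this depth does not allow a comparison. The tested genes were called changed at an adjusted p under 0.05 together with a log2 fold change (log2FC) beyond 0.5 in either direction.

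With siADAR1 #1, 4 of the 28 hosts were called higher than in siControl (EPB41L4A-AS1, GAS5, SNHG15 and SNHG17) and 2 lower (SNHG7 and SNHG8). Among all genes tested, 6.62% were called higher and 11.4% lower. The calls of EPB41L4A-AS1 and SNHG15 were the 2 of these 6 that were also made without a filter and with eBayes without a trend. Both settings also called fewer of all genes: 976 higher and 1709 lower without a filter, and 696 and 1104 without a trend. SNHG16 and SNHG32 had an adjusted p under 0.05 with a log2FC below 0.5. The median log2FC was -0.15 over the 28 hosts and -0.03 over all genes. With a filter at 50 normalized counts the median of all genes was -0.07, while that of the hosts stayed at -0.15. Centring the libraries on their medians moved the median of all genes to 0.15 and the calls over all genes from 1296 higher and 2240 lower to 2190 higher and 1574 lower. With this scaling 6 hosts were called higher with siADAR1 #1 and 0 lower, against 11.2% and 8.03% of all genes, and the median of the hosts was 0.03, so the sign of the host median depended on the scaling while it stayed below that of all genes.

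With siADAR1 #2, 3 of 28 hosts were called higher (EPB41L4A-AS1, SNHG11 and SNHG22) and 1 lower (SNHG14), against 11.7% and 16.5% of all genes. Of these 4 calls, those of EPB41L4A-AS1 and SNHG11 were also made with eBayes without a trend. Over all genes, that setting called 2036 higher and 2715 lower, instead of 2285 and 3226. The median log2FC was -0.11 over the hosts and -0.02 over all genes. With a filter at 50 normalized counts the median of all genes was -0.08, while that of the hosts stayed at -0.11. Another 4 hosts, SNHG15, SNHG16, SNHG29 and SNHG32, had an adjusted p under 0.05 and a smaller log2FC. With median-centred libraries 4 were called higher and 0 lower, against 13.5% and 14.6% of all genes. Between the siRNAs, 1 host was called higher with siADAR1 #2 than with siADAR1 #1 (SNHG29) and 3 lower (SNHG15, SNHG16 and SNHG17), against 17.6% and 16.9% of all genes, and with median-centred libraries these counts were 0 and 4, against 14.9% and 20.6% of all genes. As shares of the 28 hosts, the higher calls made 14.3% with siADAR1 #1 and 10.7% with siADAR1 #2, and the lower calls 7.14% and 3.57%, and these few hosts were not tested as a set.

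When the 4 siADAR1 libraries were taken as 1 group, limma called 0 hosts and 0 of all 19590 genes (0%). In this fit a difference between the siRNAs counts as spread within the group, and ADAR itself was not called (log2FC -2.53, adjusted p = 0.0972). At an unadjusted p under 0.05 there were 5 of 28 hosts and 2818 genes (14.4%), and the lowest adjusted p of a host was 0.143, that of EPB41L4A-AS1. Averaging the changes of both siRNAs in the fit with 3 groups called 2 hosts higher (EPB41L4A-AS1 and SNHG15) and 1 lower (SNHG8), against 6.39% and 11.9% of all genes. All 4 siADAR1 libraries lay above both siControl libraries for 3 hosts (EPB41L4A-AS1, SNHG15 and SNHG32), a pattern found in 12.1% of all genes. They lay below both for 8 hosts (SNHG1, SNHG7, SNHG8, SNHG10, SNHG12, SNHG19, SNHG30 and SNHG31), a pattern found in 17.3% of all genes.

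**Figure D2:**
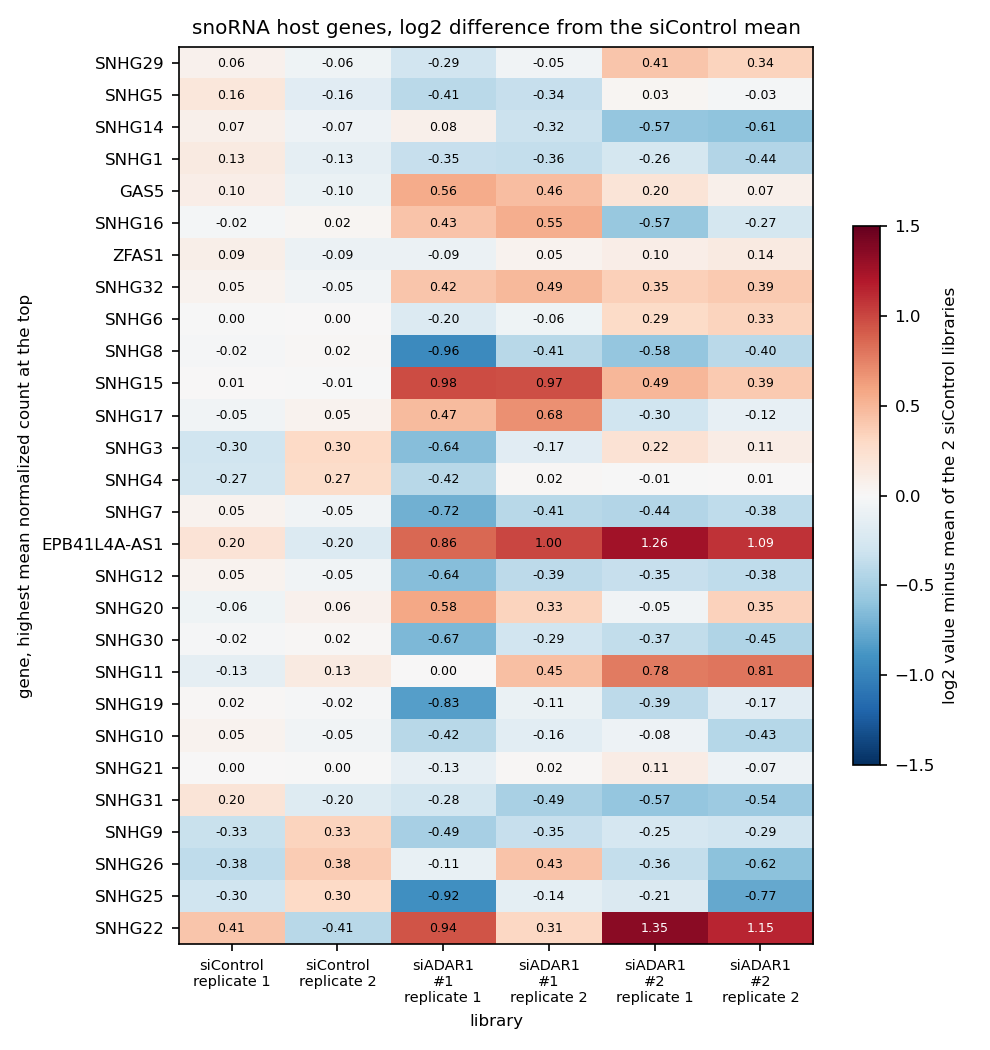
Difference of each library's log2 value from the mean of the 2 siControl libraries (color and printed value) for the 28 hosts that passed the filter, ordered by mean normalized count. Columns are the 6 libraries, and the rows of EPB41L4A-AS1 and SNHG15 are red in all 4 siADAR1 columns, whereas those of SNHG16 and SNHG17 are red with siADAR1 #1 and blue with siADAR1 #2.

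EPB41L4A-AS1 was the 1 host called in the same direction with both siRNAs. This gene lies next to and partly opposite EPB41L4A and carries SNORA13, the H/ACA box snoRNA printed above. Its normalized counts were 592 and 448 in siControl, 936 and 1033 with siADAR1 #1 and 1235 and 1099 with siADAR1 #2. Every knockdown library was above every control library. The level was 189% of that of siControl with siADAR1 #1 (log2FC 0.93, SE 0.18, adjusted p = 0.0118) and 224% with siADAR1 #2 (log2FC 1.17, SE 0.18, adjusted p = 0.0023). The siRNAs did not differ beyond their spread (log2FC 0.24, SE 0.18, adjusted p = 0.319). Without siControl replicate 2, the lower control library, the call with siADAR1 #1 was lost (log2FC 0.73, adjusted p = 0.0712), whereas the call with siADAR1 #2 held under all 16 alternative settings. The exons share 2200 bases with EPB41L4A on the opposite strand, and the strand setting of the read counting is not given in the sources used here. EPB41L4A had a log2FC of 0.83 with siADAR1 #1 (adjusted p = 0.0431) and of -0.37 with siADAR1 #2 (adjusted p = 0.275), and its level in siControl was lower, at 196 and 165 normalized counts.

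SNHG15, the host of the H/ACA box snoRNA SNORA9, had 1165 and 1153 normalized counts in siControl. It had 2285 and 2270 with siADAR1 #1 and 1633 and 1522 with siADAR1 #2. The transfections formed 3 groups that did not overlap, with siADAR1 #2 in the middle. The rise with siADAR1 #1 was 0.97 on the log2 scale (SE 0.12, adjusted p = 0.00337) and was called under all 16 alternative settings. With siADAR1 #2 the log2FC was 0.44 (SE 0.12, adjusted p = 0.0256), below the fold limit, and it passed that limit with median-centred (0.52) or quantile-normalized libraries (0.60). The difference between the siRNAs was -0.53 (SE 0.12, adjusted p = 0.0102), which was not called without siADAR1 #2 replicate 2 (-0.48, adjusted p = 0.0631) or with quantile-normalized libraries (-0.48, adjusted p = 0.0133).

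SNHG17 carries the SNORA71 family of H/ACA box snoRNAs. It had 1265 and 1356 normalized counts in siControl, 1819 and 2104 with siADAR1 #1 and 1065 and 1206 with siADAR1 #2. The siADAR1 #1 libraries were the highest and the siADAR1 #2 libraries the lowest, without overlap. With siADAR1 #1 the log2FC was 0.58 (SE 0.14, adjusted p = 0.0261), a call lost when any 1 of the siControl or siADAR1 #1 libraries was left out (adjusted p between 0.0514 and 0.139). With siADAR1 #2 it was -0.21 (SE 0.14, adjusted p = 0.303). The difference between the siRNAs of -0.79 (SE 0.14, adjusted p = 0.00367) was called under all 16 alternative settings.

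SNHG7 and SNHG8, hosts of SNORA17 and SNORA24, moved in the other direction. SNHG8 had 2247 and 2298 normalized counts in siControl, 1170 and 1707 with siADAR1 #1 and 1521 and 1717 with siADAR1 #2. Both siRNAs gave lower values than control, and the 2 siADAR1 #1 libraries lay far apart. The log2FC was -0.68 with siADAR1 #1 (SE 0.19, adjusted p = 0.0374) and -0.49 with siADAR1 #2 (SE 0.19, adjusted p = 0.0802). The former was -0.41 without siADAR1 #1 replicate 1 (adjusted p = 0.153), and the call was also lost without either siControl library (adjusted p = 0.154 and 0.156) and with median-centred libraries (-0.51, adjusted p = 0.0507). PRSS12, which shares 2487 exon bases with SNHG8 on the opposite strand, fell with both siRNAs (log2FC -1.03 and -1.29, adjusted p = 0.00966 and 0.00188), and its part in the SNHG8 value was not tested. SNHG7 had 1182 and 1097 normalized counts in siControl, 688 and 854 with siADAR1 #1 and 838 and 877 with siADAR1 #2. All 4 knockdown libraries were again below control. Its log2FC was -0.57 with siADAR1 #1 (SE 0.16, adjusted p = 0.0396) and -0.41 with siADAR1 #2 (SE 0.16, adjusted p = 0.0847). The call was lost when any library other than siADAR1 #1 replicate 2 was left out (adjusted p between 0.0584 and 0.184), in the fit with the 4 libraries compared (adjusted p = 0.0572) and with median-centred libraries (log2FC -0.39, adjusted p = 0.0857). DIPK1B, opposite SNHG7 over 1482 exon bases, had log2FC values of 0.10 and 0.20, neither past the test.

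SNHG11, which carries SNORA71E and SNORA60, had 219 and 263 normalized counts in siControl, 240 and 328 with siADAR1 #1 and 413 and 422 with siADAR1 #2. The siADAR1 #2 libraries were above the other 4, while those of siADAR1 #1 overlapped control. The log2FC was 0.79 with siADAR1 #2 (SE 0.22, adjusted p = 0.0275) and 0.22 with siADAR1 #1 (SE 0.22, adjusted p = 0.521). The call with siADAR1 #2 was lost when any 1 of its own or the siControl libraries was left out (adjusted p between 0.0632 and 0.149). The difference between the siRNAs was 0.57 (SE 0.22, adjusted p = 0.0746) and was called with the replicate number as a block (adjusted p = 0.0496). Among the other H/ACA box hosts, SNHG3, SNHG4, SNHG9 and SNHG31 had log2FC values between -0.56 and 0.17, and none was called against siControl.

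**Figure D3:**
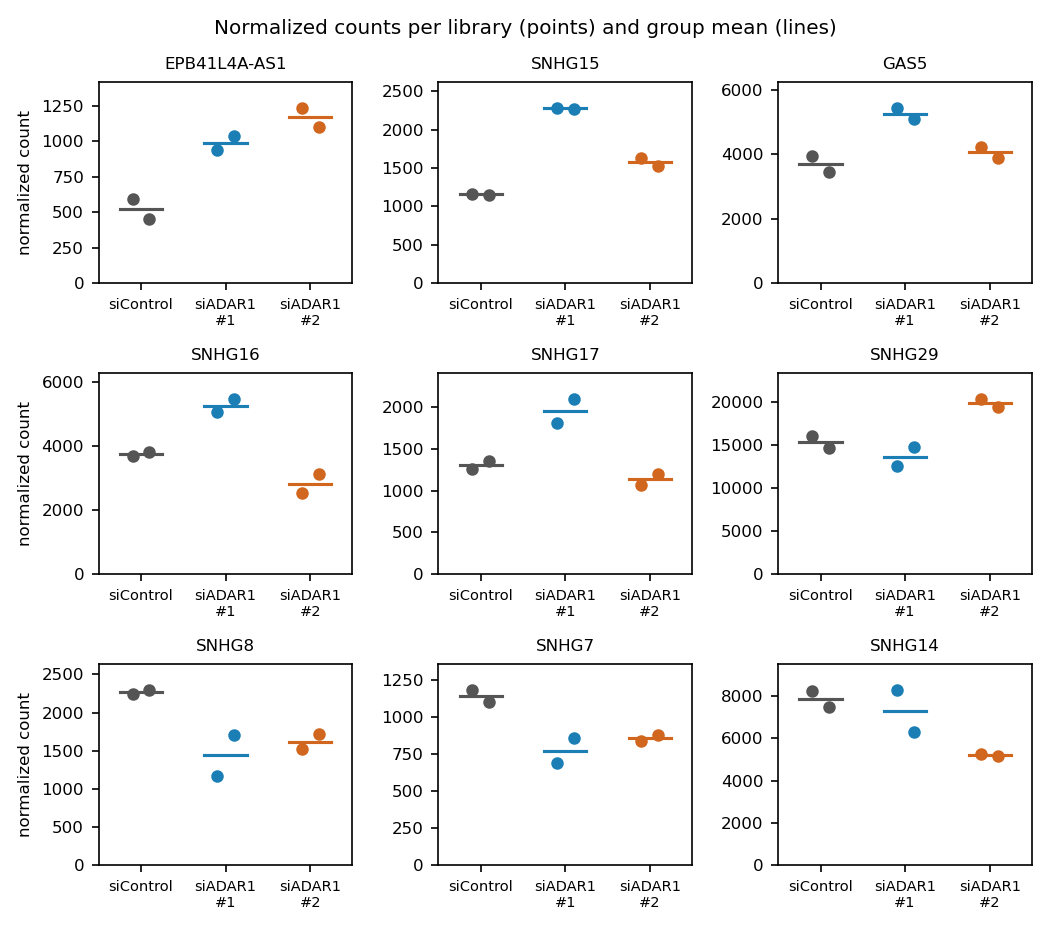
Normalized counts (y axis from 0) of 9 hosts in each library (points) with the mean of each transfection (lines), 2 libraries per transfection. EPB41L4A-AS1 rises from 520 to 984 and 1167 between siControl, siADAR1 #1 and siADAR1 #2, SNHG16 has 3747, 5263 and 2815, and the 2 siADAR1 #1 points of SNHG8 lie at 1170 and 1707.

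GAS5 was the host of mainly C/D box snoRNAs that was called higher with siADAR1 #1. The C/D box hosts SNHG16 and SNHG32 had log2FC values of 0.49 and 0.45 there, short of the fold limit. The normalized counts of GAS5 were 3953 and 3462 in siControl, 5453 and 5096 with siADAR1 #1 and 4242 and 3885 with siADAR1 #2. The siADAR1 #1 libraries were above the other 4, and those of siADAR1 #2 overlapped control. The rise with siADAR1 #1 was 0.51 on the log2 scale (SE 0.12, adjusted p = 0.0233), close to the fold limit of 0.5, and the call was lost without either siControl library or without siADAR1 #1 replicate 1 (adjusted p between 0.0684 and 0.118). With siADAR1 #2 the log2FC was 0.13 (SE 0.12, adjusted p = 0.444), and the siRNAs differed by -0.38 (SE 0.12, adjusted p = 0.0397).

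SNHG16, the host of the SNORD1 snoRNAs, had the largest difference between the siRNAs of the 28 hosts. It had 3685 and 3810 normalized counts in siControl, 5053 and 5473 with siADAR1 #1 and 2517 and 3113 with siADAR1 #2. The siADAR1 #1 libraries were above control and the siADAR1 #2 libraries below it. The log2FC against siControl was 0.49 with siADAR1 #1 (SE 0.13, adjusted p = 0.0381) and -0.42 with siADAR1 #2 (SE 0.13, adjusted p = 0.0454), both short of the fold limit. With siADAR1 #1 it passed that limit with median-centred libraries (0.67, adjusted p = 0.00929). The difference between the siRNAs was -0.91 (SE 0.13, adjusted p = 0.00154) and was called under all 16 alternative settings, with values between -1.06 and -0.76. A gene without a symbol (ENSG00000284526) shares 1648 exon bases on the opposite strand and had at most 67.3 normalized counts in any library.

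SNHG29, the most abundant host, had 16045 and 14698 normalized counts in siControl, 12547 and 14831 with siADAR1 #1 and 20419 and 19405 with siADAR1 #2. Control and siADAR1 #1 overlapped, and the siADAR1 #2 libraries were above both. The log2FC was -0.17 with siADAR1 #1 (SE 0.12, adjusted p = 0.36) and 0.37 with siADAR1 #2 (SE 0.12, adjusted p = 0.0468). The siRNAs differed by 0.55 (SE 0.12, adjusted p = 0.00891), a call that was lost without siADAR1 #1 replicate 1 (0.42, adjusted p = 0.0554) and without siADAR1 #2 replicate 1 (0.51, adjusted p = 0.0614). With median-centred libraries this difference was 0.44 (adjusted p = 0.021), below the fold limit. LRRC75A, opposite SNHG29 over 500 exon bases, had at most 296 normalized counts in any library and moved the other way between the siRNAs (log2FC -1.24, adjusted p = 0.00593). SNHG6, the host of SNORD87, had 2726 and 2736 normalized counts in siControl, 2376 and 2617 with siADAR1 #1 and 3336 and 3439 with siADAR1 #2. Its libraries lay below control with siADAR1 #1 and above it with siADAR1 #2, and the difference between the siRNAs was 0.44 (SE 0.11, adjusted p = 0.0172).

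SNHG14 spans the imprinted Prader-Willi region and runs antisense to UBE3A at its distal end. Its normalized counts were 8254 and 7462 in siControl, 8300 and 6284 with siADAR1 #1 and 5271 and 5146 with siADAR1 #2. Both siADAR1 #2 libraries and 1 siADAR1 #1 library lay below both control libraries. The log2FC was -0.59 with siADAR1 #2 (SE 0.15, adjusted p = 0.0182), and this call was lost when either siControl library (adjusted p = 0.113 and 0.0555) or either siADAR1 #2 library (adjusted p = 0.0747 and 0.0718) was left out. It was also lost with median-centred libraries (-0.52, adjusted p = 0.0599). With siADAR1 #1 the log2FC was -0.12 (SE 0.15, adjusted p = 0.617), a sign that turned without siADAR1 #1 replicate 2 (0.081) and with median-centred libraries (0.058). Several genes share exon bases with SNHG14. With siADAR1 #2, PWAR5, on the same strand with 3180 shared bases, rose (log2FC 1.16, adjusted p = 0.0054). UBE3A, opposite over 1822 bases, had a log2FC of -0.27 (adjusted p = 0.105). UBE3A had 8656 and 8435 normalized counts in siControl and 7232 and 6969 with siADAR1 #2. SNRPN, on the same strand over 141 bases, had a log2FC of 0.26 (adjusted p = 0.138). ENSG00000257647, opposite over 427 bases, fell (log2FC -1.35, adjusted p = 0.0334), with at most 80.6 normalized counts in any library. The part of these genes in the SNHG14 value was not tested.

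None of the other abundant hosts that carry C/D box snoRNAs was called with the deposited scaling. ZFAS1, which carries the SNORD12 family, had 4007 and 3530 normalized counts in siControl, 3535 and 3887 with siADAR1 #1 and 4032 and 4142 with siADAR1 #2, and its log2FC was -0.02 and 0.12 (SE 0.12). SNHG5, the host of SNORD50A and SNORD50B, had 8415 and 6694, then 5651 and 5913, then 7645 and 7352 normalized counts in the same order, and its log2FC was -0.38 (SE 0.13, adjusted p = 0.0824) and -0.0016 (SE 0.13, adjusted p = 0.994). SNHG1 had log2FC values of -0.35 with each siRNA (SE 0.13, adjusted p = 0.0953 and 0.0747). SNHG32, within the major histocompatibility region, had 3043 and 2841 normalized counts in siControl, 3934 and 4121 with siADAR1 #1 and 3753 and 3861 with siADAR1 #2. All 4 knockdown libraries of SNHG32 were above control, with log2FC values of 0.45 (SE 0.11, adjusted p = 0.0251) and 0.37 (SE 0.11, adjusted p = 0.0344), below the fold limit. SNHG32 was called higher with siADAR1 #1 in median-centred and in quantile-normalized libraries, and with siADAR1 #2 in quantile-normalized libraries.

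SNHG22 was the host of a scaRNA (SCARNA17) that was called. It was the lowest of the tested hosts, with 27.2 and 14.3 normalized counts in siControl, 40.2 and 25.1 with siADAR1 #1 and 54.4 and 46.9 with siADAR1 #2. The siADAR1 #1 libraries overlapped control, and those of siADAR1 #2 lay above it. The log2FC with siADAR1 #2 was 1.25 (SE 0.40, adjusted p = 0.0491), which was lost when any 1 of its own or the siControl libraries was left out (adjusted p between 0.0548 and 0.23). MYO5B shares 229 exon bases with SNHG22 on the opposite strand and rose with siADAR1 #2 from 267 and 214 normalized counts in siControl to 1205 and 788 (log2FC 2.02, adjusted p = 0.00112), and its part in the SNHG22 value was not tested. The other scaRNA hosts, SNHG10, SNHG20 and SNHG21, had log2FC values between -0.29 and 0.46 and were not called.

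**Figure D4:**
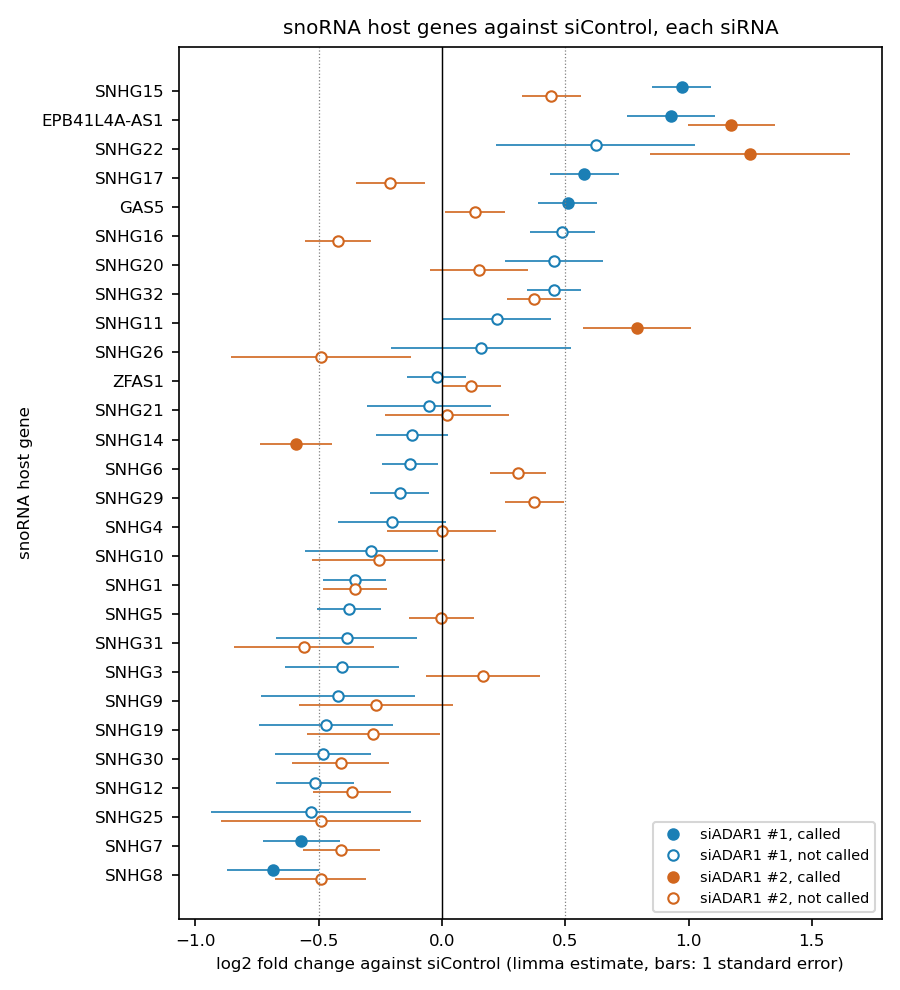
Log2 fold change of each of the 28 tested hosts against siControl with siADAR1 #1 (blue) and siADAR1 #2 (orange), with bars of 1 standard error and dotted lines at the fold limit of 0.5; filled points were called. Both comparisons share the siControl libraries, EPB41L4A-AS1 is filled for both siRNAs (0.93 and 1.17), and SNHG16 and SNHG17 have their points on opposite sides of 0.

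The calls were also counted by the class of snoRNA that a host carries. Of the 10 tested hosts with C/D box snoRNAs alone, none was called with siADAR1 #1 (median log2FC -0.13) and SNHG14 was called lower with siADAR1 #2 (median -0.14). Of the 9 hosts with H/ACA box snoRNAs alone, 2 were called higher and 2 lower with siADAR1 #1 (median -0.39), and 2 higher and 0 lower with siADAR1 #2 (median -0.0002). Of 5 tested hosts with mixed or other snoRNAs, GAS5 and SNHG17 were called higher with siADAR1 #1 and 0 with siADAR1 #2 (median -0.35 with each). Of the 4 scaRNA hosts, SNHG22 was called higher with siADAR1 #2. SNHG17 and SNHG1 counted as mixed through 1 RefSeq entry each without a class, which GENCODE names SNORA71 and SNORD22. The 6 tested hosts with a pyrimidine start had 0 calls with either siRNA, and their medians were -0.29 and -0.0009. This class rests on the RefSeq windows. Those of GAS5, SNHG3 and SNHG14 lie outside these genes as annotated in GENCODE release 44, and SNHG15 had no window. Whether these 4 hosts belong to the class is not settled. The shares of all genes called higher and lower were 6.62% and 11.4% with siADAR1 #1 and 11.7% and 16.5% with siADAR1 #2. The classes are small, and no test was made between them. Mature snoRNAs carry no poly(A) tail. Few reads were assigned to their own rows: of 134 annotated snoRNA rows that lie within the hosts, 88 had 0 reads in all 6 libraries, and the highest value was 65 reads. Many of these snoRNAs lie within an exon of a host isoform, so their rows do not measure all reads over the snoRNA bodies.

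Genes of the surrounding pathway were counted in the same fit, in which 6.62% of all genes were called higher and 11.4% lower with siADAR1 #1, and 11.7% and 16.5% with siADAR1 #2. These shares are the background of each count below, and no list was tested as a set. Of 21 NMD factors, 1 was called higher and 3 lower with siADAR1 #1 (median log2FC 0.02), and 3 higher and 6 lower with siADAR1 #2 (median -0.0035). SMG1, the kinase that phosphorylates UPF1, rose with siADAR1 #2 (log2FC 0.64, adjusted p = 0.00271), as did UPF3A (0.70, adjusted p = 0.00336), whereas the decapping activator DCP1A fell (-1.16, adjusted p = 0.00177). UPF1, the central NMD helicase, was among those called lower with each siRNA. Of 17 coding transcripts known as NMD-sensitive, 5 were called higher and 1 lower with siADAR1 #1 (median -0.14), and 4 higher and 3 lower with siADAR1 #2 (median -0.05). DDIT3, a transcription factor of the stress response, rose with both (log2FC 0.92 and 1.59, adjusted p = 0.00861 and 0.000521). GADD45A rose with siADAR1 #2 (0.88, adjusted p = 0.00203) and the splicing regulator TRA2B fell (-1.02, adjusted p = 0.000586).

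Of 20 proteins of snoRNA particles and their assembly, 3 were called higher and 4 lower with siADAR1 #1 (median log2FC 0.05), and 0 higher and 6 lower with siADAR1 #2 (median -0.38). ZNHIT6, a C/D particle assembly factor, rose with siADAR1 #1 (1.08, adjusted p = 0.0026). TCOF1, which acts in ribosomal RNA transcription, and NOP56, a core C/D protein, fell with siADAR1 #2 (log2FC -1.60 and -0.64, adjusted p = 0.000365 and 0.00281). Of 30 protein-coding snoRNA hosts outside the ribosomal proteins, 1 was called higher and 2 lower with siADAR1 #1 (median -0.10), and 2 higher and 12 lower with siADAR1 #2 (median -0.32). The translation factor EIF4G2, the deadenylase scaffold CNOT1 and CWF19L1 fell with siADAR1 #2 (log2FC -1.84, -1.26 and -1.14, adjusted p = 0.000254, 0.000425 and 0.000549). Of 83 ribosomal protein genes tested, 0 were called higher and 10 lower with siADAR1 #1 (median -0.15), and 1 higher and 3 lower with siADAR1 #2 (median -0.07). RPL41 and RPL32 fell with siADAR1 #1 (log2FC -2.04 and -1.41, adjusted p = 0.00337 for each), and RPL34 rose with siADAR1 #2 (0.67, adjusted p = 0.00259). Of 11 other long noncoding transcripts tested, 1 was called higher and 4 lower with siADAR1 #1 (median -0.65), and 2 higher and 4 lower with siADAR1 #2 (median 0.24). NEAT1, the scaffold of paraspeckles, had a log2FC of -0.65 with siADAR1 #1 (adjusted p = 0.0653) and rose with siADAR1 #2 (1.71, adjusted p = 0.00109), TUG1 fell with both (-0.67 and -1.01, adjusted p = 0.0127 and 0.00127), and OIP5-AS1 fell with siADAR1 #2 (-0.92, adjusted p = 0.00136).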

How the data were processed

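Total RNA from Cal62 cells was made into poly(A)+ libraries and sequenced with 75-bp paired-end reads. The authors trimmed the reads with Atropos, counted them on genes with featureCounts in bcbio-nextgen, estimated transcript abundance with Salmon, and normalized with DESeq2. The submitters' processing notes name GRCh38. Tool versions, the gene annotation used for counting and its strand setting are not given in the sources used here. The exon lengths, overlaps and gene starts of GENCODE release 44 may therefore differ from those of the genes as counted. The authors deposited a log2 scale, a variance-stabilizing transformation of counts divided by size factors. Undoing it gave whole reads for 100% of values within a tolerance of 0.1. For the normalization, the paper names a preference for gene counts that tximport derived from Salmon. Whole reads can come from featureCounts or from rounded Salmon estimates. If they come from Salmon, the read numbers given here are estimates. The labels name 1 sample per transfection, and its 2 columns were used as the 2 biological replicates of the methods.

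Symbols, exon lengths and overlaps came from GENCODE release 44, which matched 57830 of 58333 identifiers, as did the printed snoRNA sequences with their positions and the snoRNA rows counted in the table. The snoRNAs per host and the start windows came from RefSeq. The log2 values were fitted with limma 3.58.1 in R 4.3.3 (lmFit, eBayes with trend) over all genes past the filter, 1 fit for 3 groups and 1 with the siADAR1 libraries as 1 group. Tests were two-sided with Benjamini-Hochberg adjustment over 19590 genes, and the steps were tested on simulated data. Replicate numbers were checked for pairing: the differences between replicate 2 and replicate 1 had correlations of 0.12, 0.12 and 0.18 between transfections, all above 0.1, so the numbers were also tried as a block. Limits from 3 reads cover counting error only. Other alternatives were filters, scalings, variance models, voom on the reads, log2 of 1 plus the normalized count, fits with 4 libraries, and each library left out.

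The genes, the gene lists and the rule for named genes were chosen with earlier results of these data known. The rule named hosts called in any comparison with values in every library, and at most 3 genes per list with the smallest adjusted p. The other hosts were described by level, and SNHG6, UPF1 and the genes overlapping hosts were chosen after their values were seen. Some genes of the lists and overlaps are not reported here. 0 columns were left unused.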

Additional observations from a re-analysis of the deposited data

Results flagged for a closer look

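The effects of the siRNAs on 4 hosts differed in the test of the difference itself (log2FC with siADAR1 #2 minus that with siADAR1 #1, limma). The difference was -0.91 for SNHG16 (adjusted p = 0.00154), -0.79 for SNHG17 (adjusted p = 0.00367), -0.53 for SNHG15 (adjusted p = 0.0102) and 0.55 for SNHG29 (adjusted p = 0.00891). For SNHG16 and SNHG17 the libraries of siADAR1 #1 lay above both siControl libraries and those of siADAR1 #2 below them. For SNHG15 both siRNAs gave values above control. SNHG6 was noted because its siADAR1 #1 libraries lay below and its siADAR1 #2 libraries above both siControl libraries, with a difference of 0.44 (adjusted p = 0.0172) that is below the fold limit. All of these are differences between 2 siRNAs against the same gene, with 2 libraries each.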

How the results depend on the processing

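The number of hosts called with siADAR1 #1 was 6, and it was 2 without a filter and with eBayes without a trend (EPB41L4A-AS1 and SNHG15 in both). It ranged from 1 to 6 when 1 library was left out: SNHG15 alone without siControl replicate 2, and EPB41L4A-AS1 and SNHG15 without siControl replicate 1 or siADAR1 #1 replicate 1. The number with siADAR1 #2 was 4, and it was 2 with eBayes without a trend and 1 to 4 with 1 library left out: 1 (EPB41L4A-AS1) without either siControl library or siADAR1 #2 replicate 1, and 2 without siADAR1 #2 replicate 2. Between the siRNAs it was 4, and 3 to 8 with 1 library left out, with 8 without siADAR1 #1 replicate 2. With both siRNAs as 1 group it was 0, and 3 with the average of the siRNA changes. With median-centred libraries the median log2FC of the hosts was 0.027 with siADAR1 #1, 0.0032 between the siRNAs and 0.016 for both siRNAs as 1 group. With quantile normalization it was -0.056 with siADAR1 #1 and 0.0080 between the siRNAs. With 1 library left out the median ranged from -0.24 to -0.056 with siADAR1 #1, from -0.21 to -0.044 with siADAR1 #2, from -0.042 to 0.24 between the siRNAs and from -0.14 to 0.013 for both siRNAs as 1 group. Signs turned for SNHG14 with siADAR1 #1 (-0.12, to 0.058 with median-centred libraries, and -0.32 to 0.081 with 1 library left out, the highest without siADAR1 #1 replicate 2), for SNHG29 with siADAR1 #1 (-0.17, to 0.0071 with median-centred libraries) and for SNHG8 between the siRNAs (0.19, and -0.079 to 0.46 with 1 library left out, the lowest without siADAR1 #1 replicate 1). The cause was not tested. With the replicate block 6 hosts were called between the siRNAs, SNHG11 (0.57, adjusted p = 0.0496) and SNHG3 in addition to the 4, and the block changed no call against siControl. With 1 library left out, the lone library of a transfection was assumed to vary like the others. Calls over all genes with each siRNA also became fewer without either siControl library. They also became fewer without siADAR1 #1 replicate 1 for siADAR1 #1, and without either siADAR1 #2 library for siADAR1 #2. A call lost in these fits is therefore not particular to the hosts. With 2 libraries per transfection, the replicate number and the depth both limit these values, most of all for SNHG22, SNHG25 and SNHG26.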

Other observations

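Among the few snoRNA and scaRNA rows with reads, 2 scaRNAs differed between libraries in reads, and they were picked after their values were seen. SCARNA16, within an exon of an isoform of SNHG20, had 33 and 9 reads with siADAR1 #1 and 0 in the other 4 libraries, each of which allows up to 3 reads. SCARNA13, within an exon of an isoform of SNHG10, had 25 and 19 reads with siADAR1 #1, 5 and 3 in siControl and 4 and 3 with siADAR1 #2. SNHG20 had 382 and 416 normalized counts in siControl, 598 and 502 with siADAR1 #1 and 385.5 and 508 with siADAR1 #2, and SNHG10 had 103 and 95.9, 73.9 and 89.2, and 94.1 and 73.2 in the same order. Reads on these rows cannot be told apart from reads of the overlapping host exons.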
